A study of Homo sapiens with 6 samples.

Results

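Ion channel genes were described here in the human cell line SK-N-BE(2)-C, which was established from a neuroblastoma, after treatment with DMSO, TSA or E6R. The genes were chosen by symbol: the SCN sodium channel genes, the CACNA, CACNB and CACNG calcium channel genes and the KCN potassium channel genes with a numbered symbol. Of the 36601 genes in the files 135 matched, and the 92 with at least 20 unique molecular identifiers (UMIs) over all cells are the channel genes of the text. Just inside that limit were KCNA1 with 20 UMIs and KCNE4 and KCNA2 with 22 each, and just outside were KCNJ9 with 19 and CACNG7 with 16. The working name of the set is voltage-gated ion channel genes, and it is wider than that name: the inward rectifiers (10 KCNJ genes), the two-pore channels (8 KCNK genes) and the KCNN genes match by symbol but are not gated by voltage in the usual sense.

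Voltage-gated sodium channels carry the rising phase of the action potential, voltage-gated calcium channels couple depolarization to calcium entry and transmitter release, and potassium channels set the resting potential and end the spike. Each is built from a pore-forming alpha subunit and auxiliary subunits that change its trafficking and gating. Neuroblastoma is a tumour of the sympathoadrenal lineage, whose normal descendants are excitable cells, and cell lines derived from it have long been used to record such currents.

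The data were 6 single-cell libraries made with Seq-Well S3, in which single cells share small wells with barcoded beads, with 2 libraries per treatment. DMSO is the solvent control. TSA is the usual abbreviation of trichostatin A, which inhibits the enzymatic activity of histone deacetylases (HDACs). E6R is given in the labels by that code only, and the title of the series speaks of an inhibitor of the HDAC complex that is not enzymatic. The sources used here give no dose, no treatment time and no origin of the replicates, so p-values measure the spread between these libraries, which may be technical.

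The cell filter left 17589 cells, 1861 to 3946 per library, with 4206366 to 26180262 UMIs per library. The DMSO libraries were the shallowest. Channel genes took 0.108% and 0.127% of the UMIs in the DMSO libraries, 0.0660% and 0.0623% in the TSA libraries, and 0.108% and 0.134% in the E6R libraries. The share of UMIs from mitochondrial genes was 5.83% and 6.20% under DMSO, 6.08% and 9.71% under TSA, and 1.55% and 1.51% under E6R. The top 1% of cells by depth held 22.5% of the UMIs of E6R replicate 2, a higher share than in any other library. Pairs of libraries shared 11 to 58 cell barcodes. The name of the deposited data of TSA replicate 2 carries a tag (reWTA) that those of the other libraries lack and the labels do not explain, and whether that library was prepared in another way was not tested. All 12 sympathoadrenal marker genes were detected in the cells, among them DBH and HAND2. Of the 12 markers, 3 fell under TSA, PHOX2A and ELAVL4 among them, where 13.5% of all genes tested fell. The summed level of the 12 was 4157 and 4584 CPM (UMIs scaled to a common library total) under DMSO, 4297 and 4933 under TSA and 4098 and 6620 under E6R. These 3 falls passed in all 18 alternatives. The part of depth, mitochondrial share or these markers in the channel values was not tested.

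Promoter sequences of 67 of the 92 channel genes were found in a RefSeq table (build GRCh38.p14, 250 bases before to 50 after a transcript start). The stretches below are the 120 bases before the start of 4 genes whose difference between TSA and DMSO, given further on, passed the test in all 18 alternative analyses. They are shown with the GC box GGGCGG, searched on both strands, in capitals. KCNAB1 (chr3:156120428-156120547, plus strand) and CACNA2D1 (chr7:82443957-82444076, minus strand) fell under TSA. KCNN3 (chr1:154870282-154870401, minus strand) and KCNN1 (chr19:17966987-17967106, plus strand) rose. In the GENCODE 29 annotation the KCNAB1 and KCNN1 stretches lie in an intron of the gene, ahead of an internal start, and the other two lie outside genes.
KCNAB1: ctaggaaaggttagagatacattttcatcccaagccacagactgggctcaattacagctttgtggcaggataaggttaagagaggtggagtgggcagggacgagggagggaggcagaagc
CACNA2D1: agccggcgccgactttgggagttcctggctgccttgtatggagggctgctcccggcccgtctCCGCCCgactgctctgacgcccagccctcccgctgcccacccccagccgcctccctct
KCNN3: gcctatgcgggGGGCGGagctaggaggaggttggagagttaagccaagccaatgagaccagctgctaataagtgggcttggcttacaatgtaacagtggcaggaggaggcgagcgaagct
KCNN1: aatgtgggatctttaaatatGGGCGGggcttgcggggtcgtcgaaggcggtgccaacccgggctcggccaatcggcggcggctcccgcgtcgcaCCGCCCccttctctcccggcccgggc

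The KCNAB1 stretch held no GC box and 1 CpG, and the KCNN1 stretch held 2 GC boxes and 16 CpGs. Over the whole 300-base windows, a GC box was found in 46 of the 67 channel promoters (68.7%) and in 44.6% of the 27305 promoters in the table, and median GC content was 65.7% against 58.3%. Of the genes that differed between TSA and DMSO, 5 of 6 that rose and 8 of 11 that fell had a GC box, and 28 of 41 that did not pass had one. A TATA box (TATAAA, both strands) was found in 2 of the 67 channel promoters and in 3264 of the 27305.

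The RE1 element is the site through which the repressor REST, which recruits HDAC-containing corepressors, binds many neuronal genes. Its left part, TTCAGCACC, was found on either strand in 3 of 67 channel promoters (4.48%) and in 0.403% of all promoters. Those 3 were CACNG3, KCNH6 and KCNK3. In KCNH6 and KCNK3 the right part, GGACAGC, which stood in 6.11% of all promoters, lay within the same 30 bases. The search took either orientation and any spacing of the parts. In KCNH6 both parts read on the same strand. In KCNK3 they read on opposite strands and so do not form one element in one direction. Both parts are in capitals below, for KCNH6 at chr17:63523120-63523149 and for KCNK3 at chr2:26692686-26692715, both on the plus strand. In KCNK3 the left part reads on the opposite strand, and the stretch overlaps the first exon of a GENCODE transcript.
KCNH6: cttctTTCAGCACCaaggcgtGGACAGCtc
KCNK3: tgggtGGTGCTGAAgGGACAGCtccgcggc

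These are matches of letters and not measured binding. KCNK3 did not pass the test between TSA and DMSO without a replicate block, KCNH6 was higher in TSA than in E6R, and CACNG3 was too low to test. The REST transcript stood at 55.0 and 17.8 CPM under DMSO, 27.7 and 22.9 under TSA and 69.0 and 11.5 under E6R. It was higher in replicate 1 than in replicate 2 of every treatment, and the groups overlapped. Among REST and 13 of its corepressors, SIN3A and HDAC1 rose under TSA and CTDSPL, CTDSP1 and RCOR2 fell. Of all genes tested 16.2% rose and 13.5% fell. CTDSP1 did not pass with either TSA library left out (adjusted p up to 0.0597) and RCOR2 did not pass with any 1 of the DMSO or TSA libraries left out (up to 0.186). CTDSPL, a phosphatase that acts with REST, went from 51.6 and 65.6 CPM under DMSO to 5.32 and 4.27 under TSA, and it stood at 69.6 and 67.6 under E6R.

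By level in CPM, with no correction for transcript length, the channel genes with most transcripts were SCN3B, KCNH2, KCNAB1, KCNK3 and CACNA2D1. SCN3B encodes a sodium channel beta subunit, and KCNH2 the hERG potassium channel. KCNK3 encodes the acid-sensitive two-pore channel TASK-1. CACNA2D1 encodes the alpha2delta-1 subunit that carries calcium channels to the membrane and binds gabapentin. Summed over the 92 genes, the level was 957 and 1155 CPM under DMSO, 710 and 718 under TSA and 1074 and 1316 under E6R. Both TSA libraries lay below all others.

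**Figure D1:**
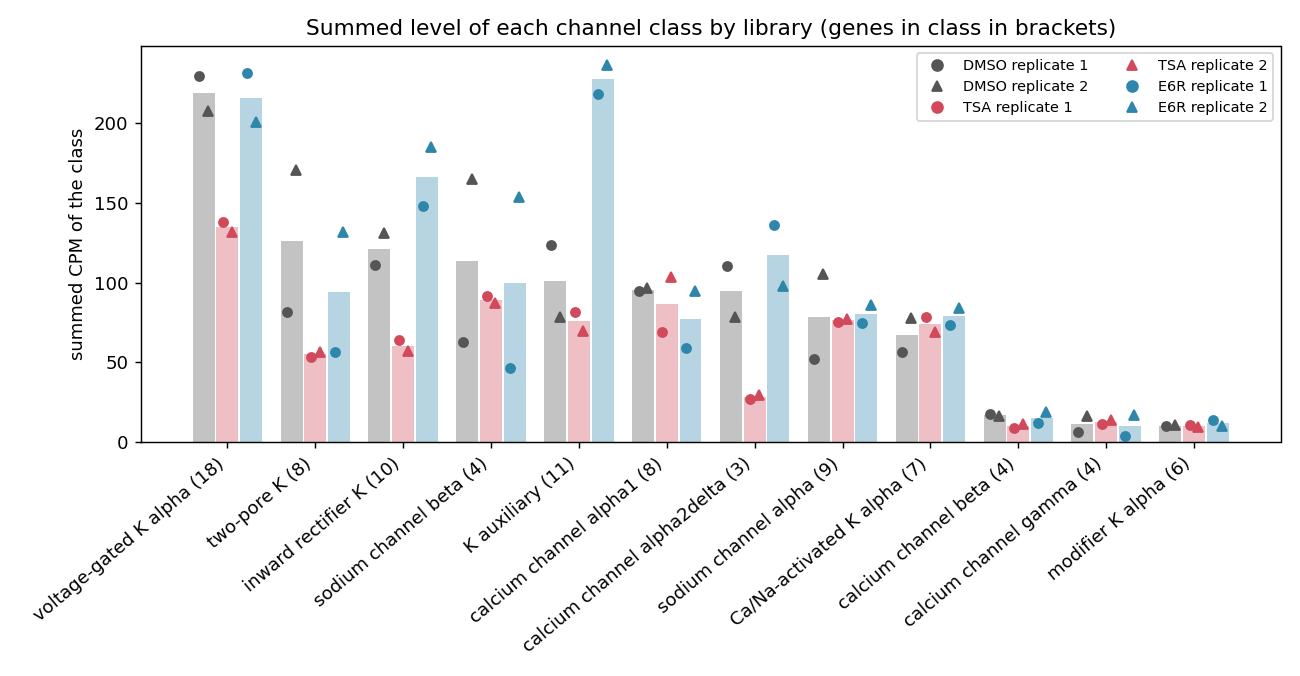
Summed CPM (vertical axis) of each class of channel genes (horizontal axis, number of genes in brackets) under DMSO, TSA and E6R. Bars are the means of 2 libraries and points the single libraries, circles for replicate 1 and triangles for replicate 2; the alpha2delta class lay at 27.3 and 29.7 CPM under TSA and at 78.8 CPM or more in every other library.

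The classes did not move alike. The 3 alpha2delta genes summed to 110 and 78.8 CPM under DMSO, 27.3 and 29.7 under TSA and 136 and 98.2 under E6R. CACNA2D1, given further on, made up most of each sum. CACNA2D2 was on the higher side under TSA (log2 fold change 0.87, adjusted p = 0.126). The 10 inward rectifiers summed to 111 and 131 CPM under DMSO, 64.1 and 56.9 under TSA and 148 and 185 under E6R, and the groups did not overlap. The auxiliary potassium subunits stood at 124 and 78.4 CPM under DMSO, 81.9 and 70.0 under TSA and 218 and 237 under E6R. Most of the E6R sum was KCNAB1, given further on, so it does not show a rise of the class. The median log2 fold change of the 8 auxiliary genes tested was -0.41 for E6R against DMSO. The 18 voltage-gated potassium alpha genes summed to 230 and 208 CPM under DMSO, 138 and 132 under TSA and 232 and 200 under E6R. Sodium channel alpha genes, in contrast, summed to 52.3 and 105 CPM under DMSO, 75.4 and 77.5 under TSA and 74.9 and 85.8 under E6R, so that the treated libraries lay within the DMSO range. As the plot of summed levels by class shows, sodium channel beta genes differed more between the DMSO replicates than between the treatment means. Two-pore genes summed to 81.8 and 171 CPM under DMSO, 53.5 and 56.7 under TSA and 56.4 and 132 under E6R. Both TSA libraries lay below both DMSO libraries there, and the DMSO replicates were far apart too. These sums are descriptions without a test, and the genes with the highest levels weigh most in them.

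The first comparison asks what inhibition of HDAC enzymatic activity did to the channel genes. Between TSA and DMSO, 22 of the 81 channel genes tested had an adjusted p under 0.05 (27.2%), 10 higher and 12 lower. Of all 16763 genes tested, 29.7% passed, 16.2% higher in TSA and 13.5% lower, so the channel genes changed about as often as other genes. The median log2 fold change of the channel genes was -0.37 and that of all genes -0.01. In the 20 channel genes that averaged at least 10 CPM, the median was -0.92 and 15 were on the lower side. For all genes at that level the median was 0.07, and 47.0% were on the lower side. At lower levels the channel genes were close to all genes: from 2 to 10 CPM the medians were 0.07 and 0.02, with 50.0% and 49.5% lower, and under 2 CPM they were -0.46 and -0.45, with 54.8% and 60.1% lower. KCNJ10 and KCNS3 reached the minimum of 20 UMIs through the TSA libraries alone, with 10 and 2 UMIs in the other 4 libraries, so their rise is tied to how the genes were chosen. Without the 9 tested genes of that kind, 20 of 72 passed (27.8%), 8 higher and 12 lower. The genes that rose were mostly low under DMSO, and those that fell included 6 of the 10 channel genes with the highest mean level, KCNH2, KCNAB1, CACNA2D1, KCNJ3, KCNJ8 and KCNMA1. Leaving out TSA replicate 1 or TSA replicate 2 cut the count of 22 to 10 or 7. The count of all genes that passed fell in these fits too. Losses of single calls without 1 library are given gene by gene, with the highest adjusted p reached. Among the other alternatives, KCNMA1 and KCNS3 did not pass with all deposited barcodes (adjusted p = 0.0549 and 0.0524), KCNA3 without the 5% of cells with most UMIs (0.0765) and KCND3 with library sums thinned to the smallest (0.0805).

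**Figure D2:**
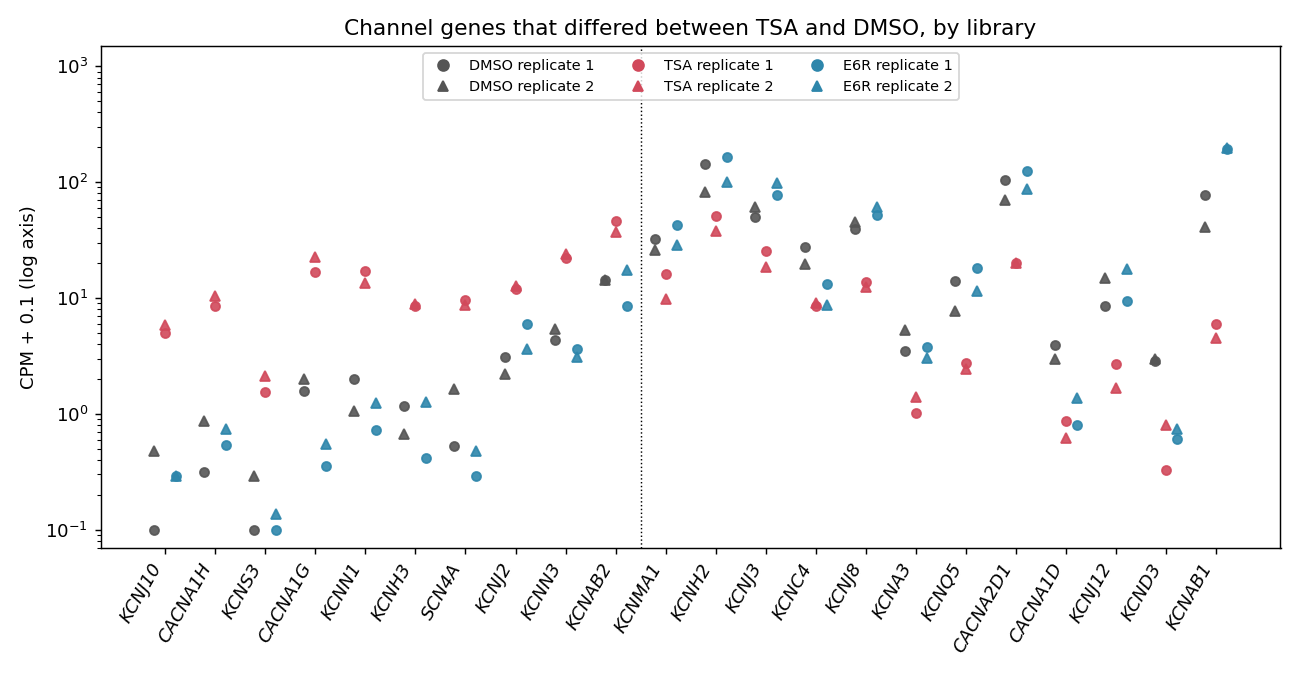
Level of the 22 channel genes that differed between TSA and DMSO, one column per gene, in each of the 6 libraries (vertical axis, CPM + 0.1, log axis). To the left of the dotted line are the 10 genes higher under TSA and to the right the 12 lower. The 22 were chosen by the test between these same libraries, so the gap between TSA and DMSO points adds no support.

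The pore genes of low-voltage-activated (T-type) calcium channels rose. CACNA1G, which encodes Cav3.1, stood at 1.49 and 1.91 CPM under DMSO, 16.7 and 22.6 under TSA and 0.253 and 0.451 under E6R. Both TSA libraries were above the other 4, and the rise over DMSO was 11.4-fold (log2 fold change 3.52 ± 0.44 SE, adjusted p = 0.00183). CACNA1H, which encodes Cav3.2, stood at 0.212 and 0.765 CPM under DMSO, 8.43 and 10.4 under TSA and 0.442 and 0.640 under E6R. Its rise was 18.5-fold from only 1 and 4 UMIs (log2 fold change 4.21 ± 0.63 SE, adjusted p = 0.00318). Both genes overlap genes on the opposite strand in GENCODE 29, CACNA1G with CACNA1G-AS1 and CACNA1H with TPSG1 among others, and reads of such pairs were not separated here because the strand rule of the counting was not given.

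Of the other calcium channel alpha1 genes, CACNA1D fell. CACNA1D, which encodes the L-type channel Cav1.3, stood at 3.82 and 2.87 CPM under DMSO, 0.760 and 0.522 under TSA and 0.695 and 1.28 under E6R (log2 fold change for TSA -2.36 ± 0.62 SE, adjusted p = 0.0250). It was lower in both treatments than in DMSO, but rested on 10 and 6 UMIs under TSA, and it did not pass with any 1 of the DMSO or TSA libraries left out (adjusted p up to 0.180). CACNA1A, the P/Q-type channel and the alpha1 gene with the highest level, stood at 84.3 and 83.4 CPM under DMSO, 32.9 and 59.5 under TSA and 56.3 and 89.4 under E6R. The TSA libraries were below DMSO (log2 fold change -0.86 ± 0.33 SE, adjusted p = 0.0808, or 0.0129 with replicate number as a block). The E6R libraries lay on both sides of DMSO.

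The alpha2delta gene CACNA2D1 fell. It stood at 104 and 70.8 CPM under DMSO, 20.1 and 19.9 under TSA and 125 and 87.6 under E6R. TSA was 4.38-fold lower than DMSO (log2 fold change -2.13 ± 0.27 SE, adjusted p = 0.00196), and E6R overlapped DMSO. CACNA2D3, another alpha2delta gene, stood at 2.55 and 4.02 CPM under DMSO, 1.52 and 1.92 under TSA and 4.87 and 4.29 under E6R, and did not pass between TSA and DMSO (adjusted p = 0.169). None of the 3 beta and 3 gamma subunit genes tested passed. CACNB3, the beta gene with the highest level, stood at 12.1 and 11.9 CPM under DMSO, 5.93 and 6.27 under TSA and 9.35 and 16.2 under E6R. Its adjusted p between TSA and DMSO was 0.0761, or 0.0485 with the block.

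Among auxiliary potassium subunits, KCNAB1 and KCNAB2 moved in opposite directions under TSA. Both encode cytoplasmic beta subunits of the Kv1 channels, which carry a redox-enzyme fold and speed inactivation in the case of Kv-beta-1. KCNAB1 stood at 77.3 and 40.9 CPM under DMSO, 5.85 and 4.44 under TSA and 194 and 195 under E6R. The 3 treatments did not overlap, and TSA was 11.4-fold lower than DMSO (log2 fold change -3.51 ± 0.34 SE, adjusted p = 0.000962). KCNAB2 stood at 14.2 CPM in both DMSO libraries, 46.0 and 37.2 under TSA and 8.40 and 17.2 under E6R. TSA was 2.93-fold higher than DMSO (log2 fold change 1.55 ± 0.36 SE, adjusted p = 0.0155), and E6R lay on both sides of DMSO. KCNAB2 did not pass with any 1 of the DMSO or TSA libraries left out (adjusted p up to 0.0966).

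The KCNAB1 difference also showed in the share of cells with a UMI. This share was 13.1% and 6.16% under DMSO, 2.47% and 1.37% under TSA and 33.8% and 31.6% under E6R. After each cell was thinned to 1000 UMIs, with shallower cells left out, it was 8.42% and 3.86%, 0.648% and 0.394%, and 13.9% and 15.7%. The order of the treatments was the same with and without thinning. Left out as too shallow were 674 and 1450 cells of the DMSO libraries, 615 and 503 of the TSA libraries and 692 and 1718 of the E6R libraries. With a single cell line there was no cell type known to lack KCNAB1 to set a background, and fewer cells with the transcript and less of it per cell cannot be told apart. The gene spans chr3:156037701-156539138 and overlaps KCNAB1-AS1 and KCNAB1-AS2 on the opposite strand.

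The potassium pore genes went both ways. Of 17 voltage-gated alpha genes tested, KCND3, KCNQ5, KCNA3, KCNC4 and KCNH2 fell and KCNH3 rose. KCNH2 stood at 143 and 82.2 CPM under DMSO, 51.4 and 38.0 under TSA and 165 and 101 under E6R. Its log2 fold change for TSA was -1.33 ± 0.34 (SE), with an adjusted p of 0.0229. KCNQ5, an M-current subunit, stood at 14.0 and 7.65 CPM under DMSO, 2.66 and 2.35 under TSA and 18.2 and 11.4 under E6R. Its TSA libraries were the lowest of the 6 (log2 fold change -2.10 ± 0.44 SE, adjusted p = 0.0106). KCNC4, a Kv3 channel, stood at 27.4 and 19.5 CPM under DMSO, 8.43 and 8.97 under TSA and 13.0 and 8.62 under E6R, so that it was below DMSO in both treatments (log2 fold change for TSA -1.43 ± 0.33 SE, adjusted p = 0.0153). KCNH2, KCNQ5 and KCNC4 did not pass without DMSO replicate 1 or either TSA library, with adjusted p-values up to 0.174, 0.0966 and 0.115, and KCNQ5 and KCNC4 not with thinned cells either (0.161 and 0.121).

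KCNA3, a Kv1 channel, stood at 3.40 and 5.16 CPM under DMSO, 0.912 and 1.31 under TSA and 3.66 and 2.93 under E6R. KCND3, the A-type channel Kv4.3, stood at 2.76 and 2.87 CPM under DMSO, 0.228 and 0.697 under TSA and 0.505 and 0.640 under E6R. Both fell under TSA, with log2 fold changes of -1.95 ± 0.51 and -2.60 ± 0.71 (SE), but KCND3 rested on 3 and 8 UMIs. KCND3 did not pass with any 1 of the DMSO or TSA libraries left out (adjusted p up to 0.196), and KCNA3 not without DMSO replicate 2 or either TSA library (up to 0.179). KCNH3, a channel of the ether-a-go-go family, rose from 1.06 and 0.574 CPM under DMSO to 8.43 and 8.79 under TSA (log2 fold change 3.39 ± 0.70 SE, adjusted p = 0.0105), with 0.316 and 1.17 under E6R. It did not pass without DMSO replicate 2 or either TSA library (adjusted p up to 0.0692).

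KCNS3 was the modifier alpha gene that passed, out of 3 tested. Such subunits form no channel alone and alter Kv2 channels. KCNS3 was a member only through TSA. Its values for TSA are therefore tied to how the genes were chosen and cannot decide whether it rose. KCNS3 was counted 0 and 1 times under DMSO, 19 and 23 times under TSA and 0 and 1 times under E6R. Its level was 13.7 times as high in TSA as in DMSO by the summed counts (exact 95% interval 2.33 to 554, counting error only), and the call was lost with DESeq2 and with any 1 of the DMSO or TSA libraries left out (adjusted p up to 0.162). KCNG1, the modifier gene with the highest level, stood at 7.65 and 7.27 CPM under DMSO, 7.67 and 6.36 under TSA and 10.1 and 7.98 under E6R, and its log2 fold change for TSA was -0.09 ± 0.34 (SE).

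Calcium-activated potassium genes went both ways. The small-conductance (SK) genes KCNN1 and KCNN3 rose. KCNN1 stood at 1.91 and 0.956 CPM under DMSO, 17.2 and 13.4 under TSA and 0.632 and 1.13 under E6R, a 10.7-fold rise for TSA (log2 fold change 3.42 ± 0.51 SE, adjusted p = 0.00330). KCNN3 stood at 4.25 and 5.36 CPM under DMSO, 22.1 and 24.0 under TSA and 3.54 and 2.97 under E6R, a 4.79-fold rise (log2 fold change 2.26 ± 0.32 SE, adjusted p = 0.00280). The third SK gene, KCNN2, stood at 0.212 and 1.34 CPM under DMSO, 3.87 and 6.70 under TSA and 0 and 0.263 under E6R. Its adjusted p for TSA was 0.0712, or 0.0124 with the block. KCNN2 was a member only through TSA, with 128 UMIs there and 15 in the other libraries. Its p-values for TSA are therefore tied to how the genes were chosen and cannot decide whether it rose. The big-conductance gene KCNMA1 fell, from 32.5 and 26.0 CPM under DMSO to 16.1 and 9.66 under TSA, with 42.2 and 28.3 under E6R. Its log2 fold change for TSA was -1.18 ± 0.33 (SE, adjusted p = 0.0320), and it did not pass with any 1 of the DMSO or TSA libraries left out (up to 0.216).

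Of 10 inward rectifiers, KCNJ10 and KCNJ2 passed as higher and KCNJ12, KCNJ8 and KCNJ3 as lower. KCNJ10 was a member only through TSA. Its values for TSA are therefore tied to how the genes were chosen and cannot decide whether it rose. KCNJ10, a glial-type channel, was counted 0 and 2 times under DMSO, 65 and 66 times under TSA and 3 and 5 times under E6R. By the summed counts it was 21.4 times as high in TSA as in DMSO (exact 95% interval 5.80 to 178, counting error only), while the summed glial markers were 18.3 and 14.0 CPM under DMSO and 22.3 and 14.8 under TSA, with SOX10 counted in 1 of these 4 libraries. KCNJ2, which encodes Kir2.1, stood at 2.97 and 2.10 CPM under DMSO, 11.9 and 12.6 under TSA and 5.88 and 3.50 under E6R (log2 fold change for TSA 2.27 ± 0.43 SE, adjusted p = 0.00784). Both treatments lay above DMSO for KCNJ2. KCNJ10 did not pass without TSA replicate 2 (adjusted p = 0.0555), and KCNJ2 not without DMSO replicate 2 or either TSA library (up to 0.0631).

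KCNJ8, the pore of a channel closed by ATP, stood at 39.1 and 45.5 CPM under DMSO, 13.5 and 12.5 under TSA and 51.7 and 61.4 under E6R. KCNJ3, a channel opened by G proteins, stood at 49.9 and 60.8 CPM under DMSO, 25.1 and 18.4 under TSA and 77.8 and 97.8 under E6R. Both fell under TSA, with log2 fold changes of -1.70 ± 0.22 (SE, adjusted p = 0.00212) and -1.35 ± 0.25 (SE, adjusted p = 0.00663), and for both the 3 treatments did not overlap, with E6R the highest. KCNJ12 stood at 8.50 and 14.7 CPM under DMSO, 2.58 and 1.57 under TSA and 9.29 and 17.6 under E6R (log2 fold change for TSA -2.48 ± 0.50 SE, adjusted p = 0.00944). KCNJ12 has a near-identical paralog, KCNJ18, so its counts are uncertain. KCNJ3 and KCNJ12 did not pass without TSA replicate 2 (adjusted p = 0.0726 and 0.0912).

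None of the 7 two-pore genes tested passed. KCNK3 stood at 66.1 and 155 CPM under DMSO, 41.2 and 47.1 under TSA and 50.0 and 122 under E6R. Both TSA libraries lay below both DMSO libraries (log2 fold change -1.33 ± 0.48 SE, adjusted p = 0.0734, or 0.00723 with the block).

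Of the 9 sodium channel alpha genes SCN4A rose. SCN4A, the skeletal muscle channel Nav1.4, stood at 0.425 and 1.53 CPM under DMSO, 9.42 and 8.62 under TSA and 0.190 and 0.376 under E6R (log2 fold change for TSA 3.17 ± 0.63 SE, adjusted p = 0.00891). SCN4A did not pass with either TSA library left out (up to 0.0640). Of the 6 muscle markers 3 were tested and none of these passed between TSA and DMSO, although TNNT2 was lower and DES higher with the block (adjusted p = 0.0420 and 0.0378). Their summed level was 20.4 and 7.65 CPM under DMSO, 11.9 and 8.53 under TSA and 20.2 and 5.46 under E6R, and MYOD1 was at 0 in all but 1 library. SCN9A, the peripheral neuron channel Nav1.7 and the sodium channel alpha gene with the highest level, stood at 27.6 and 70.0 CPM under DMSO, 34.7 and 36.0 under TSA and 45.1 and 57.8 under E6R. Its groups overlapped, with a log2 fold change of -0.47 ± 0.39 (SE) for TSA and 0.07 ± 0.39 for E6R. None of the 4 beta genes passed.

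Of the 51 genes that act with these channels or carry other currents of excitability, 42 were tested, and 9 rose and 10 fell under TSA. Of all genes tested 16.2% rose and 13.5% fell. The median log2 fold change was -0.22 for the 42 and -0.01 for all genes. The 10 that fell included the intracellular fibroblast growth factors FGF13 and FGF14, which bind sodium channels, and the ankyrins ANK2 and ANK3, which anchor them. RIMS2 and RIMBP2, which tether calcium channels at release sites, fell too: RIMBP2 stood at 20.2 and 29.6 CPM under DMSO, 5.55 and 7.92 under TSA and 25.8 and 35.8 under E6R. ANK2 went from 38.9 and 48.0 CPM under DMSO to 20.7 and 28.6 under TSA, and stood at 56.9 and 62.6 under E6R. Those that rose included STAC2, an adaptor of L-type channels, from 3.82 and 3.63 CPM to 65.0 and 72.5 under TSA, with 1.07 and 1.96 under E6R. ATP1B2, a beta subunit of the sodium pump, went from 0.850 and 1.15 CPM under DMSO to 36.4 and 37.1 under TSA, and GEM, a small GTPase that inhibits calcium channels, from 4.89 and 3.63 CPM to 19.1 and 21.3. STAC2 and ATP1B2 passed in all 18 alternatives. RIMBP2 did not pass without TSA replicate 1 (adjusted p = 0.0565) nor GEM without TSA replicate 2 (0.0517), and FGF13, FGF14, ANK2, ANK3 and RIMS2 each lost the call with either TSA library left out and without 1 or both DMSO libraries (up to 0.117, 0.215, 0.250, 0.129 and 0.194). Under E6R none of the 42 passed against DMSO, where 0% of all genes passed.

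The second comparison asks how far E6R moved the channel genes. Between E6R and DMSO 0 of 81 channel genes passed by edgeR, where 0% of all genes passed, and the smallest adjusted p among them was 0.205. At an unadjusted p under 0.05, 23 channel genes passed, 3 higher and 20 lower, where 17.4% of all genes did so, 8.04% higher and 9.34% lower. DESeq2's Wald test called 1 channel gene and 415 genes in all. The comparison shares its DMSO libraries with that of TSA, so the values of both are set side by side and no relation between them was tested.

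**Figure D3:**
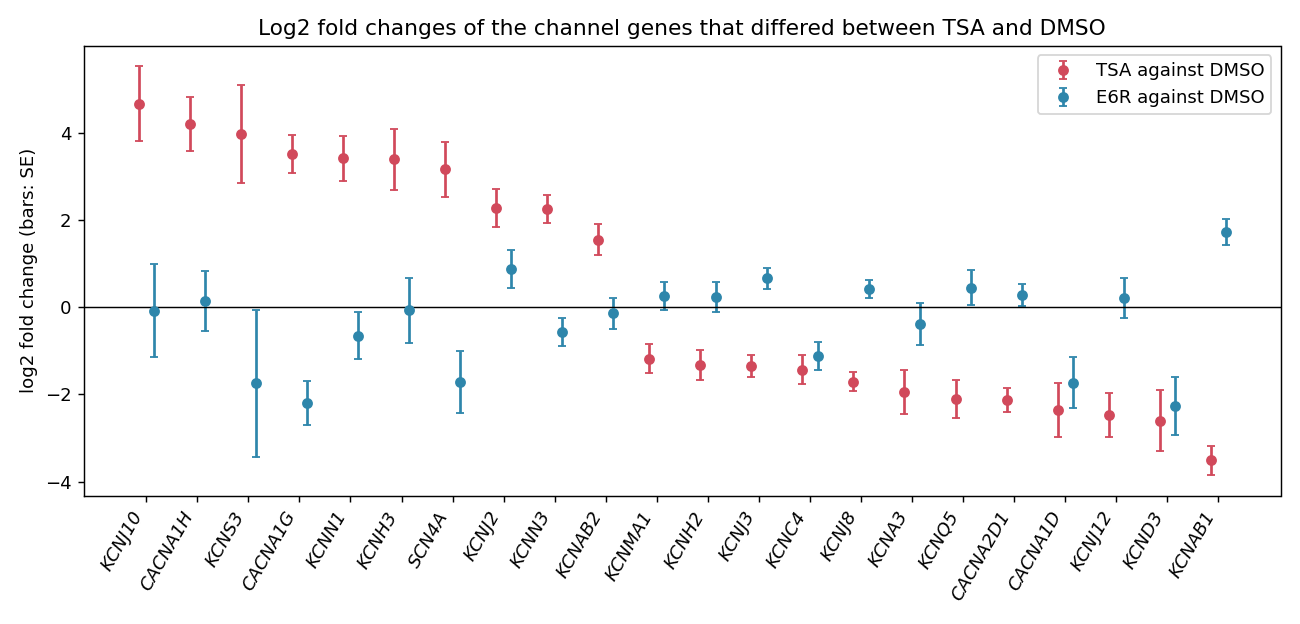
Log2 fold change against DMSO (vertical axis) of the 22 channel genes that differed between TSA and DMSO (horizontal axis), for TSA and for E6R. Bars are standard errors, and both comparisons use the same DMSO libraries; KCNAB1, at the right, is at -3.51 for TSA and 1.72 for E6R.

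KCNAB1 had the largest positive fold change of the channel genes between E6R and DMSO. At 194 and 195 CPM the E6R libraries were above the DMSO libraries at 77.3 and 40.9, a 3.30-fold difference (log2 fold change 1.72 ± 0.30 SE, adjusted p = 0.205). With replicate number as a block the adjusted p was 0.0225 and the log2 fold change 1.78. KCNAB1 was then the only channel gene among the 19 genes called. It was also the gene that DESeq2 called. KCNJ3 and KCNJ2 had log2 fold changes of 0.66 ± 0.24 and 0.88 ± 0.43 (SE), and neither passed. For CACNA2D1 the log2 fold change was 0.28 ± 0.26 (SE), and for KCNH2 0.24 ± 0.34, each about 1 SE or less from 0.

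The share of channel genes on the lower side under E6R was larger in genes with fewer transcripts. Of 31 channel genes that averaged under 2 CPM, 24 were lower, and their median log2 fold change was -1.73. Of all 3819 genes at that level 74.0% were lower, and the median was -0.92. From 2 to 10 CPM, 18 of 30 channel genes were lower (median -0.51), as were 55.1% of all genes (median -0.08). At 10 CPM or more, 8 of 20 channel genes were lower (median 0.09), as were 34.7% of all genes (median 0.17). The DMSO libraries held the fewest UMIs, and 3 UMIs corresponded there to 0.713 and 0.626 CPM, against 0.190 and 0.115 CPM in the E6R libraries. When all libraries were thinned to the smallest, 9 channel genes under 2 CPM were still tested, 8 of them lower (median -1.77), beside 70.0% of all 596 genes at that level (median -0.75). CACNA1G, under 2 CPM in all 4 libraries of this comparison, stood at -2.19 ± 0.50 in log2 fold change (SE), with an adjusted p of 0.205. KCNC4, at 8.62 CPM or more in each of them, stood at -1.12 ± 0.32 (SE), with an adjusted p of 0.211.

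The third comparison sets the 2 treatments against each other, with doses and times unknown. Between E6R and TSA, 35 of 81 channel genes passed (43.2%), 12 higher in E6R and 23 lower. Of all genes 38.2% passed, 18.7% higher and 19.5% lower. The median log2 fold change was -0.47 for the channel genes and -0.09 for all genes, and it varied with level. At 10 CPM or more the medians were 0.66 and 0.10, with 25% of channel genes and 46.4% of all genes lower. From 2 to 10 CPM they were -0.23 and -0.18, with 56.7% and 54.6% lower. Under 2 CPM they were -1.38 and -0.74, with 80.6% and 67.5% lower. After thinning of the library sums, 9 channel genes passed as higher and 12 as lower. Of all genes 5360 passed there, 2704 of them higher. After thinning of the cells it was 9 and 9 channel genes, and 4147 of all genes, 2097 of them higher. Of the 23 lower genes, CACNG5, KCNJ10, KCNJ11, KCNN2, KCNS3 and SCN4B had under 20 UMIs outside the TSA libraries and so were members only through TSA. Without the 9 tested genes of that kind, 29 of 72 passed (40.3%), 12 higher and 17 lower. The 12 that were higher in E6R were KCNAB1, KCNJ12, KCNQ5, CACNA2D1, KCNH8, KCNJ8, KCNJ3, KCNH2, KCNA3, KCNMA1, CACNA2D3 and CACNB3. The comparison shares its TSA libraries with that of TSA against DMSO. Among these 12, KCNAB1 differed most, 37.7-fold (log2 fold change 5.24 ± 0.36 SE, adjusted p = 0.000232). CACNA2D1 was 5.33-fold and KCNJ8 4.35-fold higher in E6R, and KCNJ3 4.03-fold. Of the 12, KCNAB1, KCNQ5, CACNA2D1, KCNJ8 and KCNJ3 passed in all 18 alternatives. KCNJ12, KCNH2 and KCNMA1 did not pass without TSA replicate 2 (adjusted p = 0.0542, 0.0913 and 0.0955), and CACNA2D3, CACNB3 and KCNA3 were lost with either TSA library left out (up to 0.223, 0.193 and 0.221) and without 1 or both E6R libraries. These 3 were also lost without the 5% of cells with most UMIs (0.0530, 0.0834 and 0.129) and with library sums thinned (0.120, 0.109 and 0.0665).

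KCNH8, a voltage-gated channel of the ether-a-go-go family, had passed in neither comparison with DMSO in the fit without a block. It stood at 4.25 and 7.46 CPM under DMSO, 2.13 and 3.40 under TSA and 9.29 and 14.7 under E6R. The TSA libraries were the lowest and the E6R libraries the highest (log2 fold change for E6R against TSA 2.12 ± 0.46 SE, adjusted p = 0.00878). With the block its adjusted p between TSA and DMSO was 0.0490, and without TSA replicate 1 that between E6R and TSA was 0.0839.

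The 23 genes lower in E6R than in TSA included the T-type, SK and SCN4A genes. In log2 fold change CACNA1G stood at -5.71 ± 0.47 (SE, adjusted p = 0.000359), CACNA1H at -4.07 ± 0.54, SCN4A at -4.89 ± 0.64 and KCNN3 at -2.83 ± 0.32. KCNN2 stood at -5.03 ± 1.03 (SE, adjusted p = 0.00717, or 0.0602 without TSA replicate 2). KCNN2 was a member only through TSA. Its values against TSA are therefore tied to how the genes were chosen and cannot decide whether it differed. Several others rested on few counts under E6R. Of these, SCN4B and CACNG5 were members only through TSA too, and the same limit holds for their ratios and p-values. SCN4B, a sodium channel beta subunit, was counted 25 and 12 times under TSA and 0 and 2 times under E6R, a ratio of 28.1 for TSA over E6R (exact 95% interval 7.26 to 241, counting error only). CACNG5, a gamma subunit, was counted 31 and 23 times under TSA and 0 and 3 times under E6R, a ratio of 27.4 (interval 8.88 to 137). Neither passed without TSA replicate 1 (adjusted p = 0.0779 and 0.0806), nor CACNG5 without TSA replicate 2.

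KCNK10, a two-pore channel opened by stretch, was counted 38 and 19 times under TSA and 0 and 6 times under E6R. KCNH6, whose promoter stretch is printed above, stood at 5.95 and 12.4 CPM under DMSO, 13.1 and 14.6 under TSA and 2.15 and 4.67 under E6R. Its E6R libraries were the lowest (log2 fold change against TSA -2.0, adjusted p = 0.0145). KCNK10 and KCNH6 did not pass with either TSA library left out (adjusted p up to 0.107 and 0.0897), nor KCNK10 with library sums thinned (0.0526). With the block, KCNF1, KCNK3 and CACNA1A also passed as higher in E6R than in TSA, with adjusted p-values of 0.0214, 0.0321 and 0.0401, and KCNK9 and KCNAB3 as lower, with 0.0494 and 0.0379. KCNK9 was a member only through TSA, and KCNF1 only through E6R, with 10 UMIs in the other 4 libraries. Between TSA and DMSO the block added CACNA1B and KCNAB3 as higher (adjusted p = 0.0253 and 0.0292) and KCNMB1 as lower (0.0408), beside the genes given above.

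Some channel genes differed between the replicates of a treatment. Of the 55 channel genes with at least 100 UMIs in all, 9 were at least 2-fold higher (after 0.5 CPM was added) in replicate 2 than in replicate 1 both under DMSO and under E6R. Among them were CACNA1B, CACNG4, KCNH4, KCNK15, KCNK3, KCNT1 and SCN3B. None was 2-fold lower in both, and under TSA the 7 genes named differed by a log2 ratio of -0.08 to 0.62.

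**Figure D4:**
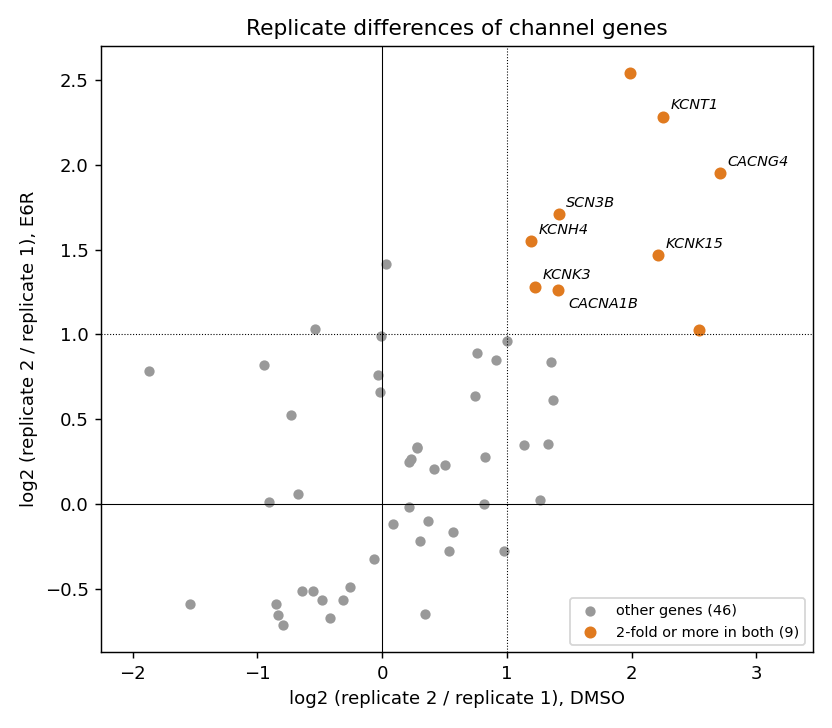
Log2 ratio of replicate 2 over replicate 1 under DMSO (horizontal axis) and under E6R (vertical axis) for the 55 channel genes with at least 100 UMIs. Dotted lines mark a 2-fold difference, and the 9 genes in orange lie above it in both treatments; 7 of them are labelled.

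KCNT1, a sodium-activated potassium channel, stood at 7.44 and 37.3 CPM under DMSO, 7.14 and 7.05 under TSA and 7.39 and 38.0 under E6R. SCN3B stood at 59.5 and 160 CPM under DMSO, 87.4 and 82.7 under TSA and 46.1 and 152 under E6R. In both genes replicate 2 of DMSO and of E6R lay above its replicate 1, while the TSA replicates differed by less than 2-fold. CACNG4, a gamma subunit and the gamma gene with the highest level, stood at 1.27 and 11.1 CPM under DMSO, 5.24 and 7.05 under TSA and 3.60 and 15.4 under E6R.

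Some marker genes moved with this split and others did not. DBH, which makes noradrenaline, stood at 194 and 724 CPM under DMSO, 162 and 158 under TSA and 224 and 1145 under E6R. TH, the first enzyme of the same pathway, stood at 30.4 and 77.8, 23.9 and 14.3, and 35.8 and 153 CPM. The other 10 sympathoadrenal markers summed to 3933 and 3782 CPM under DMSO, 4111 and 4761 under TSA and 3838 and 5322 under E6R, so that replicate 2 was lower under DMSO and higher under E6R. The 8 fibroblast or mesenchymal markers went the other way and summed to 157 and 44.8 CPM under DMSO, 178 and 104 under TSA and 353 and 52.4 under E6R. The 4 endothelial markers summed to 49.7 and 4.59, 11.5 and 4.70, and 65.8 and 1.88 CPM. The 6 immune markers summed to 7.96 to 14.1 CPM per library, nearly all of it CD68. None of these lists had a gene at 0 in all libraries. The part of these differences in the channel values was not tested.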

How the data were processed

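The deposited files of each of the 6 libraries held UMI counts per gene and barcode, which the authors had not normalized. STARsolo 2.7.9a and GRCh38 are named as tool and build, per the submitters' processing notes; annotation, strand rule and choice of barcodes are not given in the sources used here. Cells were taken as barcodes with 500 genes or more and at most 20% of UMIs from mitochondrial genes. No doublet caller was run, and the 5% of cells with most UMIs were left out as an alternative. Counts were summed per library, since cells are not replicates.

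The sums were tested with edgeR 4.0.16 (quasi-likelihood test, TMM, filterByExpr, R 4.3.3), with all 6 libraries in one fit and group as the only term. Genes were called at a Benjamini-Hochberg adjusted p under 0.05 over all 16763 genes tested, and adjusted p-values are from this test unless another is named. CPM use TMM-scaled library sizes. Standard errors come from the F statistic. Library sums of 4206366 to 26180262 UMIs make counting error small for abundant genes, so that the spread between 2 libraries limits the precision; intervals cover counting error only. The procedure was also run on simulated data. These were drawn without any deviation shared by same-numbered libraries, so the simulation does not cover such pairing.

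Replicate numbers were checked for pairing over 7515 genes with at least 20 CPM. Deviations of same-numbered libraries correlated at 0.24 (DMSO and TSA), 0.56 (DMSO and E6R) and 0.17 (TSA and E6R), so a fit with replicate number as a block is given where it changes a call.

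The channel genes, the gene lists and the classes were chosen with earlier results of these data known. Named genes were, per comparison, up to 12 higher and 12 lower by log2 fold change among those called, the 10 highest by mean CPM and the highest of each class; others named (KCNH6, CACNG3, genes of the replicate split, those gained with the block and those under the UMI minimum outside TSA) were chosen after their values were seen. Some genes that the rule picks are left out. Gene positions are from GENCODE 29 and promoters from RefSeq. Alternatives tried were other normalizations, DESeq2 1.42.0, other cell and gene filters, thinning, the block and leaving out libraries.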

Additional observations from a re-analysis of the deposited data

How the results depend on the processing

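No channel gene named that had passed changed its direction under the alternatives run. For 105 differences of genes named by the rule, there were 1833 single-gene values under alternatives. Of these, 1644 kept their direction and their side of the threshold, 87 lost the call, 46 gained it and 56 changed sign. Genes named in other ways are not counted here. Some of them changed sign too, as KCNT1 did between E6R and DMSO (-1.56 to 1.64). The 56 sign changes, 32 of them without 1 library, all fell on differences that had not passed and did not pass then either. Between TSA and DMSO the count of 22 channel genes ranged from 7 to 31 when 1 library was left out: 10 without TSA replicate 1 and 7 without TSA replicate 2. CACNA1G, CACNA1H, CACNA2D1, KCNAB1, KCNJ8, KCNN1 and KCNN3 passed in all 18 alternatives. Leaving out TMM moved the median of all genes between TSA and DMSO from -0.01 to -0.32 and gave 27 channel genes, 10 higher and 17 lower. Of all genes 5078 passed there, 1717 of them higher. Between E6R and DMSO the count of 0 became 1 with DESeq2, 9 without a low-count filter (2 higher and 7 lower) and 1 with the replicate block, and it was 0 in each fit without 1 library. Between E6R and TSA the count of 35 became 21 with library sums thinned and 18 with cells thinned, where 56 and 38 channel genes were tested, and it ranged from 16 to 35 when 1 library was left out: 17 without TSA replicate 1 and 16 without TSA replicate 2. With the replicate block the counts were 31, 1 and 39, where 6047, 19 and 7567 of all genes passed. Of the calls made without it KCNJ5 between E6R and TSA was lost (adjusted p = 0.0539). In the main fit 4975, 0 and 6408 of all genes passed. Without a low-count filter 1095 of all genes passed between E6R and DMSO. Between E6R and TSA 5360 did so with library sums thinned and 4147 with cells thinned. The count of all genes also fell in both comparisons with TSA when either TSA library was left out. The fit that left out the 1% of cells with most UMIs was chosen after seeing the data. It gave 22, 0 and 35, where 4747, 1 and 6105 of all genes passed. Where a library was left out, the lone library of its group was assumed to vary like the others. Channel genes under 2 CPM rest on few counts, above all in the shallow DMSO libraries.

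These sign changes are given in log2 fold change, and the cause was not tested. Between TSA and DMSO, leaving out 1 library gave -0.87 to 0.44 for SCN3B, -0.94 to 0.28 for SCN9A, -0.81 to 2.18 for CACNG4 and -0.20 to 0.081 for KCNG1. CACNG4 also stood at 0.46 with the replicate block and 0.022 without the 5% of cells with most UMIs. Between E6R and DMSO, leaving out 1 library gave -0.86 to 4.54 for KCNJ10, -0.34 to 1.37 for CACNA1H, -3.16 to 1.89 for KCNS3, -1.11 to 0.040 for KCNN1, -1.28 to 0.63 for KCNH3 and -5.59 to 3.16 for CACNG5, all with few counts in these libraries. It gave -0.72 to 0.39 for KCNAB2, -0.29 to 0.71 for KCNJ12, -0.064 to 0.83 for KCNH2, -0.32 to 0.54 for CACNB3, -1.21 to 0.77 for SCN3B, -1.10 to 0.42 for KCNK3, -0.54 to 0.20 for CACNA1A, -0.31 to 0.94 for SCN9A and -0.75 to 2.93 for CACNG4. In the same comparison the fit without a low-count filter gave 0.082 for KCNJ10, 0.086 for KCNH3, 0.020 for KCNAB2 and 0.016 for SCN3B. Thinned library sums gave 1.40 for KCNJ10, -2.04 for CACNA1H, 0.032 for KCNH3 and -0.22 for CACNB3, and thinned cells -1.10 for CACNA1H, -0.033 for KCNJ12 and -0.11 for CACNB3. Without the 5% of cells with most UMIs CACNA1H stood at -0.61, CACNB3 at -0.069 and KCNG1 at -0.13, and without the 1% CACNA1H at -0.18. All deposited barcodes gave -0.023 for CACNB3 and 0.000540 for SCN3B, and leaving out TMM -0.0348 for CACNB3 and -0.051 for SCN9A. Between E6R and TSA, leaving out 1 library gave -0.26 to 1.30 for KCND3, -0.86 to 0.91 for SCN3B and -0.75 to 1.39 for CACNG4. KCND3 stood at -0.50 with all deposited barcodes and -0.0473 without the 5% of cells with most UMIs, and SCN3B at -0.078 with the replicate block.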
